A study of Homo sapiens with 9 samples.

Results

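Panaxadiol (PD), a plant triterpenoid from ginseng, was given together with bacterial lipopolysaccharide (LPS) to THP-1 cells, a human monocytic leukaemia line, and the transcriptome was set against that of cells given LPS alone. The comparison took 6 of the 9 RNA-seq libraries of the study, 3 of LPS+PD (replicates 7 to 9) and 3 of LPS (replicates 4 to 6). It covered the 12812 of 34643 genes that reached an FPKM (fragments per kilobase of exon, scaled to the depth of the library) of 1 in at least 3 of the 6 libraries. Of these, 11377 reached that level in every library of both groups. Of the rest, 120 reached it in no LPS+PD library and 139 in no LPS library. Such genes passed the filter through 1 group alone, so the filter itself favoured their direction of change. The LPS+PD cells received 10 µM PD with 1 µg/mL LPS and the LPS cells 1 µg/mL LPS. The remaining 3 libraries, an untreated control (replicates 1 to 3), are quoted only as levels. All cells were labelled wildtype, and all had been driven towards a macrophage state with the phorbol ester PMA at 500 nM for 4 h, washed and left for 24 h before treatment, so the control carried PMA too. No group received PD without LPS. How long the cells were exposed to LPS and PD, and in which vehicle, is not stated in the labels. A549, a lung line that the design text mentions beside THP-1, was not analysed here.

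LPS is sensed by a complex of TLR4, CD14 and LY96 (MD-2) at the cell surface. The adaptor MYD88 and the kinases behind it switch on NF-kB and AP-1, which drive cytokine and chemokine genes together with inhibitors that shut the pathway down again. A second adaptor, TICAM1 (TRIF), leads through interferon regulatory factors to type I interferon, whose receptor acts through STAT2 on the interferon-stimulated genes.

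The depth implied by the deposited values was 16974318 to 17875222 fragments in LPS+PD libraries and 16218734 to 17666868 in LPS libraries. On the first principal component, which held 65.4% of the variance, LPS+PD libraries lay at -18.8 to -19.6 and LPS libraries at 15.4 to 21.6. LPS replicate 4 was the LPS library nearest to the LPS+PD libraries. Labelled identity was checked on 16 myelomonocytic markers, of which 13 were in the test. The myeloid surface marker CD33 lay at 12.9, 12.8 and 12.45 FPKM in LPS+PD libraries and at 11.7, 12.1 and 10.2 in LPS libraries. The myeloid factor SPI1 lay at 219, 218 and 221 FPKM in LPS+PD libraries and at 263, 264 and 270.5 in LPS libraries, while MPO and MEIS1, and CD68, which macrophages are known to express, stayed below 1 FPKM in all 6 libraries. Of the markers of other cell types, CD3E, CD3G and TRBC2 of T cells and EPCAM and KRT18 of epithelium were at 0 in all 6 libraries. Of 12 epithelial markers 11 stayed below 1 FPKM, and their summed level was 3.80 to 4.04 FPKM in LPS+PD libraries and 6.02 to 7.72 in LPS libraries. Markers of T and NK cells summed to 20.9 to 22.9 FPKM in LPS+PD libraries and 32.8 to 34.7 in LPS libraries, with 7 of 9 below 1. Markers of granulocytes and mast cells summed to 14.5 to 16.7 FPKM in LPS+PD libraries and 8.01 to 10.02 in LPS libraries, with 6 of 8 below 1. What part these markers have in the results was not tested. The labels do not tell whether the replicates were separate cultures, so the p-values rest on a spread between libraries that may be technical. Means are given ± SD over the 3 libraries of a group, and log2 fold changes are LPS+PD over LPS. In bulk RNA, fewer cells of a type and less RNA per cell cannot be told apart.

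With PD, LPS-treated cells had lower levels of cytokine, chemokine and interferon-stimulated genes and slightly higher levels of a larger number of other genes. Calls are limma tests on log2(FPKM + 1) with a Benjamini-Hochberg adjusted p under 0.05; this scale understates changes of low genes. Of the 12812 genes, 4842 (37.8%) were called, 3026 (23.6%) higher and 1816 (14.2%) lower in LPS+PD than in LPS. Counts of list members given below are to be read beside these shares. Large changes went mostly down. At least 2-fold lower were 196 genes (1.53%) and at least 2-fold higher 34 (0.265%), and at a 4-fold change the counts were 29 lower and 0 higher. The median log2 fold change over all tested genes was 0.06, with 5th and 95th percentiles of -0.52 and 0.46, and the extremes were -3.48 and 1.76. Both extremes, CCL1 and SERPINB2, passed the filter through 1 group alone. The libraries of the 2 groups did not overlap in 51.6% of the genes. The split between directions depends on the scaling between libraries, since median-of-ratios scaling gave 2007 higher and 2348 lower in place of 3026 and 1816.

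**Figure D1:**
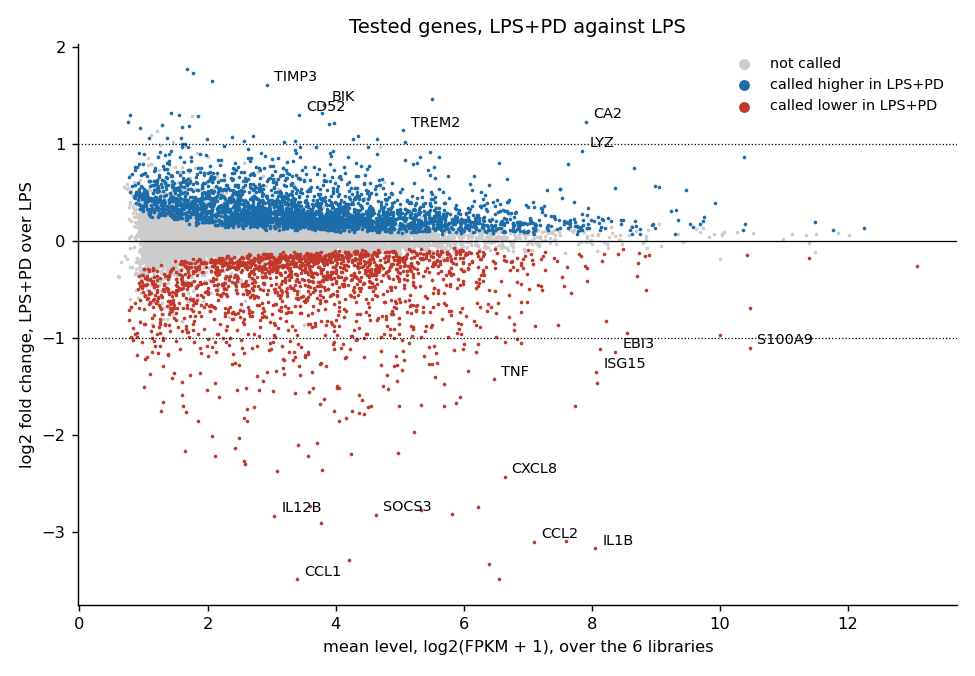
Log2 fold change of LPS+PD over LPS (vertical axis) against the mean level over the 6 libraries on the log2(FPKM + 1) scale (horizontal axis) for the tested genes, coloured by call; dotted lines mark a 2-fold change. Falls reach -3.48 at CCL1 and lie below -3 at IL1B and CCL2, while among the labelled rises TIMP3 has 1.61 and BIK 1.40.

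Secreted ligands held the largest falls. Of 21 tested chemokine genes 19 fell and 2 were not called, with a median log2 fold change of -1.68 against 0.06 for all tested genes. CCL2, which attracts monocytes (ENSG00000108691, GRCh38 chromosome 17, 34255218 to 34257203, plus strand), had 28.6, 26.4 and 28.0 FPKM in LPS+PD libraries and 223, 247 and 264 in LPS libraries. Each LPS+PD library lay far below each LPS library, and control libraries were at 0.0858 to 0.129 FPKM (a log2 difference of -3.10 with SE 0.06 and limma adjusted p = 1.38e-06). The neutrophil chemokine CXCL8 showed 29.8, 29.4 and 31.0 FPKM with LPS+PD and 147, 175 and 179 with LPS (a log2 difference of -2.43 with SE 0.07 and limma adjusted p = 3.38e-06). CXCL13, a B-cell chemokine, stood at 38.0, 40.4 and 40.1 FPKM with LPS+PD and at 309, 358 and 368 with LPS, again without overlap (log2 fold change -3.09). CCL1 was the lowest of them with PD, at 0.756, 0.896 and 0.379 FPKM, or 8, 9 and 4 fragments, against 11.4, 19.0 and 24.9 FPKM with LPS. Its LPS level was lowest in replicate 4, and the log2 fold change of -3.48 was -3.78 without that library. CCL3, a macrophage inflammatory protein, had 8.69, 9.86 and 9.24 FPKM with LPS+PD and 58.3, 72.8 and 77.8 with LPS. Its close relative CCL4 had 12.2, 11.8 and 15.1 FPKM with LPS+PD and 89.2, 98.0 and 104 with LPS. Their near-identical copies CCL3L1 and CCL4L2 had log2 fold changes of -3.33 and -3.48, or -3.47 and -3.62 without LPS replicate 4, but fragments may be split between the copies, so single levels are uncertain. Of the interferon-induced chemokines, CXCL10 fell by 1.67 on the log2 scale, near the list median, and CXCL11 and CXCL9 fell by 1.00 and 0.96. CCL5, the most abundant chemokine with LPS+PD, averaged 96.7 ± 1.76 FPKM with LPS+PD and 178 ± 15.7 with LPS (log2 fold change -0.87). CCL22 and CCL23 were the members not called, with log2 fold changes of 0.07 and 0.05.

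Interleukins and other cytokine ligands fell in 9 of 11 tested members, with a median of -1.19. IL1B, released after inflammasome activation (chromosome 2, 112829751 to 112836903, minus strand), had 49.8, 53.2 and 51.7 FPKM in LPS+PD libraries against 363, 524 and 548.5 in LPS libraries (a log2 difference of -3.17 with SE 0.14 and limma adjusted p = 1.09e-05). LPS+PD libraries differed from each other by a few FPKM, whereas LPS replicate 4 lay well under the other LPS libraries, and the log2 fold change was -3.35 without it. IL12B, the subunit that IL-12 and IL-23 share, had 0.831, 1.17 and 1.04 FPKM with LPS+PD and 11.2, 13.03 and 16.1 with LPS, and IL23A, the other subunit of IL-23, had 18.0, 18.2 and 18.1 with LPS+PD and 96.8, 143 and 146 with LPS. Without LPS replicate 4 the log2 fold change of IL23A was -2.93 in place of -2.74. EBI3, a subunit of IL-27 and IL-35, kept the highest level of the list with PD, at 196, 199 and 219 FPKM with LPS+PD against 438, 452 and 467 with LPS (log2 fold change -1.14). IL1RN, the antagonist of the IL-1 receptor, fell as well, to 14.3, 13.9 and 13.7 FPKM with LPS+PD against 47.4, 47.7 and 47.4 with LPS (a log2 difference of -1.70 with SE 0.03 and limma adjusted p = 9.41e-07). IL6 averaged 0.193 ± 0.108 FPKM with LPS+PD and 2.77 ± 0.532 with LPS. IL18 and IL32 were not called; IL18 had a log2 fold change of 0.20, and IL32 averaged 4.46 ± 0.253 FPKM with LPS+PD and 4.47 ± 0.196 with LPS.

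Growth factors fell in 5 of 7 tested members, or in 3 without LPS+PD replicate 7, LPS+PD replicate 8 or any of the LPS libraries in turn. PDGFA, a ligand of platelet-derived growth factor receptors, had 13.2, 15.3 and 14.2 FPKM with LPS+PD and 50.8, 62.5 and 62.8 with LPS (a log2 difference of -1.97 with SE 0.09 and limma adjusted p = 1.08e-05). HBEGF, an EGF receptor ligand, had 6.71, 6.93 and 7.36 FPKM with LPS+PD and 15.9, 19.3 and 19.3 with LPS. CSF2, which encodes GM-CSF, was listed at 0 in LPS+PD replicates 7 and 9 and at 0.225 FPKM in replicate 8, against 1.37, 3.74 and 3.13 with LPS. TGFB1 moved least among the called members, at 46.6, 46.2 and 52.8 FPKM with LPS+PD and 55.2, 54.8 and 57.1 with LPS (log2 fold change -0.20), and its call was lost under quantile normalization and in 5 of the 6 fits that left out a library.

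The title of the series names TNF and IL7 with their receptors. TNF had 46.0, 47.8 and 47.8 FPKM in LPS+PD libraries and 120.0, 132 and 134 in LPS libraries, with 2.41 to 2.54 in control libraries (a log2 difference of -1.43 with SE 0.04 and limma adjusted p = 3.38e-06). Both TNF receptors fell, the inducible TNFRSF1B to 48.2, 52.9 and 51.6 FPKM with LPS+PD against 90.4, 93.7 and 96.7 with LPS (log2 fold change -0.87), and the widely expressed TNFRSF1A to 23.7, 20.1 and 22.2 FPKM with LPS+PD against 27.5, 25.8 and 28.0 with LPS (log2 fold change -0.29). IL7R, the receptor chain for IL-7, had 3.45, 3.38 and 3.73 FPKM with LPS+PD and 20.1, 24.4 and 22.1 with LPS (a log2 difference of -2.36 with SE 0.07 and limma adjusted p = 3.38e-06). The LPS+PD level of IL7R stayed above control libraries, at 0.277 to 0.609 FPKM. IL7 itself was near the filter, at 1.204, 1.06 and 1.01 FPKM with LPS+PD and 1.79, 2.38 and 2.53 with LPS (log2 fold change -0.62). Downstream of IL7R, STAT5A fell to 6.11, 5.91 and 5.99 FPKM with LPS+PD against 10.0, 10.6 and 11.4 with LPS, while the shared receptor chain IL2RG, JAK1 and STAT5B were not called, with log2 fold changes of -0.10, 0.01 and 0.05 and overlapping libraries. JAK3 was below 1 FPKM in all 6 libraries.

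Other TNF family ligands were mixed. TNFSF10 (TRAIL) fell to 4.24, 4.36 and 4.10 FPKM with LPS+PD against 12.7, 10.9 and 12.2 with LPS, and TNFSF13B (BAFF) to 6.84, 7.55 and 7.08 with LPS+PD against 12.8, 12.9 and 12.2 with LPS, whereas TNFSF14 (LIGHT) rose to 2.74, 2.90 and 2.41 with LPS+PD against 1.87, 1.87 and 1.70 with LPS. In all, 5 of 8 ligands of this family fell and 1 rose, with 3 falls without LPS replicate 6 and 2 rises without LPS+PD replicate 9. Of 14 TNF family receptors 8 fell and 0 rose. TNFRSF18 (GITR) had the largest change, with 5.55, 6.54 and 5.65 FPKM with LPS+PD and 18.7, 21.2 and 21.4 with LPS, followed by the costimulatory TNFRSF9 (4-1BB) at 3.86, 3.62 and 4.25 with LPS+PD and 9.46, 9.88 and 9.77 with LPS. CD40, which receives help from T cells, had 19.3, 19.0 and 19.3 FPKM with LPS+PD and 33.5, 33.8 and 35.5 with LPS (a log2 difference of -0.80 with SE 0.03 and limma adjusted p = 6.63e-06).

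**Figure D2:**
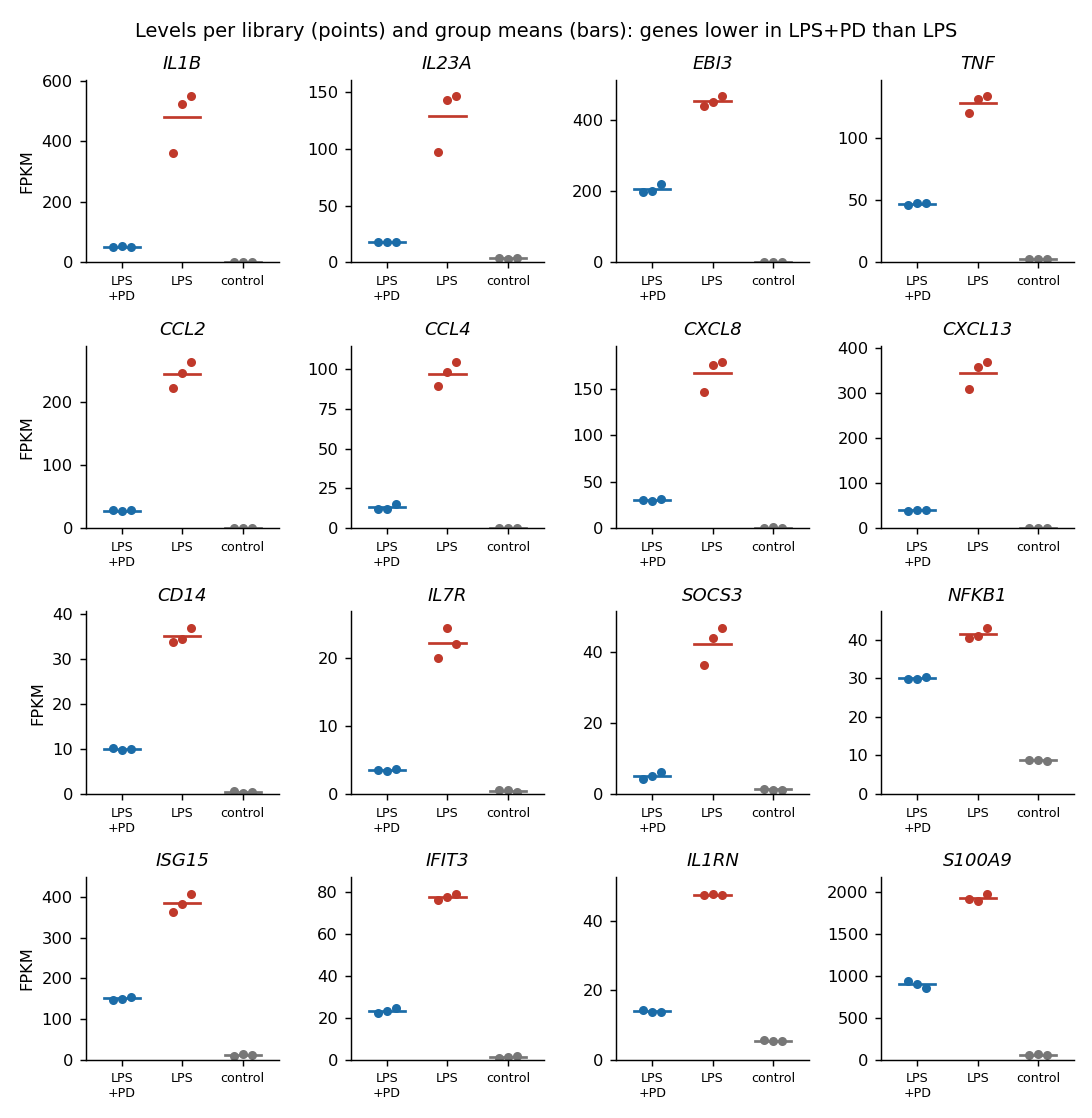
FPKM in each library (points) with group means (horizontal bars) for 16 genes called lower in LPS+PD than in LPS, with LPS+PD left of LPS and control last; each panel has its own vertical axis from 0. The LPS+PD points lie below every LPS point in each panel, and the LPS+PD mean of NFKB1 is 30.0 ± 0.313 FPKM against 41.6 ± 1.31 with LPS.

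Pattern recognition receptors fell in 17 of 21 tested members and rose in 1, with a median of -0.64. CD14, the LPS co-receptor, had 10.3, 9.87 and 10.1 FPKM in LPS+PD libraries and 33.7, 34.5 and 36.9 in LPS libraries (a log2 difference of -1.70 with SE 0.04 and limma adjusted p = 1.47e-06), with 0.305 to 0.632 in control libraries. LY96, the LPS-binding partner of TLR4, averaged 2.82 ± 0.306 FPKM with LPS+PD and 5.202 ± 0.623 with LPS. TLR4 itself was low, at 0.843, 0.772 and 0.833 FPKM with LPS+PD and 1.38, 1.49 and 1.14 with LPS, and its call was lost in 5 of the 6 fits that left out a library. Of the RNA sensors, DDX58 (RIG-I) fell to 9.95, 9.95 and 9.82 FPKM with LPS+PD against 23.2, 24.7 and 23.8 with LPS, IFIH1 (MDA5) to 17.0, 17.0 and 15.8 with LPS+PD against 33.3, 33.7 and 34.6 with LPS, and TLR8 to 5.46, 5.13 and 5.75 with LPS+PD against 12.4, 12.3 and 11.6 with LPS. NLRP3, the inflammasome sensor, was not called at a mean of 30.5 ± 1.29 FPKM with LPS+PD and 30.9 ± 1.596 with LPS, and neither was NOD2. NOD1 was the member that rose (log2 fold change 0.27).

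Of 29 adaptors and kinases 14 fell and 4 rose, with a median of -0.13. Over all tested genes 14.2% fell and 23.6% rose, so the share of rises lay below the general share. Under median-of-ratios scaling 16 fell and 0 rose, and the 4 rises were 0 without LPS+PD replicate 9 or LPS replicate 6 and 2 without LPS+PD replicate 7, LPS+PD replicate 8 or LPS replicate 5. IRAK2, a kinase of the MYD88 complex, had 3.02, 3.01 and 3.64 FPKM with LPS+PD and 16.3, 19.8 and 19.7 with LPS (a log2 difference of -2.21 with SE 0.09 and limma adjusted p = 7.19e-06). TRAF1, an adaptor of TNF receptors, had 3.78, 3.93 and 4.31 FPKM with LPS+PD and 16.5, 21.7 and 22.6 with LPS (log2 fold change -2.08). MYD88 fell to 19.5, 20.9 and 20.6 FPKM with LPS+PD against 30.7, 31.0 and 34.0 with LPS. TRAF6, IRAK4, TICAM1, TBK1 and CHUK, core parts of the same routes, were not called, with log2 fold changes between -0.11 for TRAF6 and 0.02 for TICAM1.

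Most genes listed as feedback inhibitors of inflammatory signalling fell too. Of 28 tested members of this list 22 fell and 2 rose, with a median of -0.49. SOCS3, which blocks cytokine receptor signalling, had 4.30, 5.00 and 6.16 FPKM with LPS+PD and 36.2, 44.0 and 46.6 with LPS, without overlap (a log2 difference of -2.82 with SE 0.13 and limma adjusted p = 1.08e-05). The list also holds the survival kinase PIM1 and the ubiquitin ligase PELI1, for which no inhibitory role was shown here. PIM1 fell to 13.5, 15.04 and 14.5 FPKM with LPS+PD against 35.2, 36.1 and 37.2 with LPS and PELI1 to 4.88, 4.84 and 5.31 with LPS+PD against 12.7, 13.7 and 12.8 with LPS. The NF-kB inhibitor NFKBIA and the deubiquitinase TNFAIP3 (A20) fell less, with log2 fold changes of -0.46 and -0.41. SIGIRR, a restraining member of the IL-1 receptor family, rose, with means of 4.64 ± 0.497 FPKM with LPS+PD and 2.66 ± 0.285 with LPS. Among MAP kinase phosphatases and Sprouty proteins 10 of 15 fell, with DUSP6, which acts on ERK, at 14.1, 16.2 and 15.9 FPKM with LPS+PD and 32.9, 37.1 and 34.9 with LPS. Of 18 mRNA decay and RNA-binding factors 7 fell and 6 rose. ZFP36L1 had 6.84, 8.00 and 7.55 FPKM with LPS+PD and 20.8, 22.4 and 25.5 with LPS, and ZFP36 had 40.2, 39.7 and 41.3 with LPS+PD against 66.8, 68.4 and 73.0 with LPS, both lower, while ZFP36L2 was higher at 121, 122 and 126 with LPS+PD against 80.8, 78.2 and 77.4 with LPS (a log2 difference of 0.64 with SE 0.03 and limma adjusted p = 1.00e-05).

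Transcription factors of the same pathways were lower as well. NF-kB, IRF and STAT genes fell in 15 of 19 and rose in 2, with a median of -0.46; without LPS replicate 4 the rises were again 2, and without any of the other 5 libraries 1. STAT2 had 24.3, 25.7 and 23.8 FPKM with LPS+PD and 46.1, 46.5 and 45.6 with LPS (a log2 difference of -0.88 with SE 0.03 and limma adjusted p = 6.13e-06). IRF7, which amplifies interferon production, had 35.2, 36.7 and 34.1 FPKM with LPS+PD and 74.0, 68.7 and 70.7 with LPS. NFKB1 fell to 29.8, 29.8 and 30.3 FPKM with LPS+PD against 40.6, 41.1 and 43.1 with LPS, and RELA changed little, at 15.6, 16.01 and 16.3 with LPS+PD against 16.9, 17.3 and 17.8 with LPS (log2 fold change -0.11, a call also lost in 5 of these 6 fits). IRF8, which is needed for monocyte and dendritic cell development, rose to 94.0, 91.8 and 92.7 FPKM with LPS+PD against 66.2, 67.2 and 65.9 with LPS, with 147 to 157 in control libraries. AP-1, EGR and KLF genes fell in 20 of 27, for example JUNB to 66.0, 65.7 and 68.5 FPKM with LPS+PD against 111, 113 and 113 with LPS and the early response gene IER3 to 7.43, 6.91 and 8.57 with LPS+PD against 22.2, 32.2 and 30.7 with LPS. IER3 was lowest among LPS libraries in replicate 4.

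Among 34 myeloid and leukaemic transcription factors 14 fell and 12 rose, beside 14.2% and 23.6% of all tested genes. RUNX3 fell to 26.5, 27.4 and 27.9 FPKM with LPS+PD against 58.8, 69.9 and 72.0 with LPS and BHLHE40 to 3.67, 4.38 and 4.21 with LPS+PD against 10.5, 12.9 and 13.02 with LPS. Higher members included GFI1, a repressor active in granulocyte precursors, which averaged 57.0 ± 1.37 FPKM with LPS+PD and 29.9 ± 3.45 with LPS (log2 fold change 0.92), CEBPA (0.40) and RUNX2 (0.39). CEBPB and RUNX1 were not called.

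Interferon effectors fell almost as a block. All 15 tested OAS, IFIT and IFI genes fell, with a median of -1.34, and all 5 guanylate-binding proteins, all 6 members of the ISG15 conjugation list and all 9 PARP and apolipoprotein L genes fell, with medians of -0.89, -1.25 and -0.83. The counts called lower in these 4 lists, 15, 5, 6 and 9, were the same under median-of-ratios scaling, under quantile normalization and without each library in turn. IFIT1, which recognises foreign RNA, had 9.65, 10.1 and 9.29 FPKM with LPS+PD and 33.6, 33.6 and 34.4 with LPS (a log2 difference of -1.71 with SE 0.04 and limma adjusted p = 1.38e-06). Its partner IFIT3 had 22.3, 23.01 and 24.5 FPKM with LPS+PD and 76.3, 77.5 and 79.0 with LPS. OAS2, which makes the activator of RNase L, had 43.7, 45.5 and 44.8 FPKM with LPS+PD and 98.7, 99.5 and 103 with LPS. The ubiquitin-like modifier ISG15 stood at 147, 149 and 155 FPKM with LPS+PD and 364, 382 and 407 with LPS, its ligase HERC5 at 5.02, 4.99 and 5.10 with LPS+PD against 15.1, 14.6 and 14.6 with LPS, and its protease USP18 at 15.9, 17.3 and 18.2 with LPS+PD against 41.5, 45.5 and 42.2 with LPS. GBP1, a GTPase that coats intracellular bacteria, had 1.77, 1.75 and 2.00 FPKM with LPS+PD and 7.86, 8.97 and 8.399 with LPS (a log2 difference of -1.73 with SE 0.06 and limma adjusted p = 4.93e-06). In IFIT1, IFIT3, OAS2, ISG15, HERC5, USP18 and GBP1 no LPS+PD library reached an LPS library, and all LPS+PD libraries lay above the control libraries, which were at 0.0256 to 0.0623 FPKM for GBP1 and 9.70 to 15.1 for ISG15. Restriction factors fell in 22 of 26, with MX1, which blocks viral ribonucleoproteins, at 23.3, 25.9 and 25.1 FPKM with LPS+PD and 66.7, 65.2 and 69.2 with LPS and IFITM1 at 75.2, 77.1 and 73.6 with LPS+PD against 144, 143 and 144 with LPS. SAMHD1 and SLFN11 were not called and APOBEC3B was higher (log2 fold change 0.24), a call lost under median-of-ratios scaling and in 5 of the 6 fits that left out a library.

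Several falls stood side by side on the chromosome. There were 7 runs of at least 3 neighbouring tested genes that were all called at least 2-fold lower, and no such run of higher genes. On chromosome 10 (GRCh38, 89283694 to 89421001) the run was IFIT2, IFIT3, IFIT1 and IFIT5, with log2 fold changes from -1.71 to -1.34, and on chromosome 12 (112906777 to 113011723) OAS1, OAS3 and OAS2, from -1.15 to -1.01. On chromosome 17 (34255218 to 34363231) it was CCL2, CCL7, CCL8 and CCL1, from -3.48 to -1.50, and on chromosome 4 (73740506 to 75050115) CXCL8, CXCL1, CXCL2 and PARM1, from -2.43 to -1.04. The pair of runs on chromosome 2 held NRIR, CMPK2 and RSAD2 (6828514 to 6898239) and IL1A, IL1B and IL1RN (112773915 to 113134016). On chromosome 1 (78619922 to 78666695) IFI44L and IFI44 lay beside a noncoding gene. NRIR is a noncoding RNA next to RSAD2, and whether counting used strand is not stated in the labels, so overlapping fragments of such neighbours cannot be assigned with certainty.

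Promoters of these genes were read from RefSeq (GRCh38.p14), from 250 bases before to 50 after the first listed start, for the 9037 tested genes with an entry. The following 3, all from genes lower with PD, are shown because they held the most matches among the named members of the guanylate-binding, OAS/IFIT/IFI (which includes IFIH1) and chemokine lists. Capitals mark matches to the core of the interferon-stimulated response element, GAAANNGAA, or to an NF-kB site, GGGANTTTC, on either strand.
GBP1 (chr1:89065159-89065458, minus strand): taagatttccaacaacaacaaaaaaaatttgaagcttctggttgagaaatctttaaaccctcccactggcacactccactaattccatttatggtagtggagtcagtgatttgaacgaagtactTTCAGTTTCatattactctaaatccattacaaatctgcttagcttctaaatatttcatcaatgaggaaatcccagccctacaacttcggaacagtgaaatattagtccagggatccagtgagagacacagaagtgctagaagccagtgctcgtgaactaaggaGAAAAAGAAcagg
IFIH1 (chr2:162318635-162318934, minus strand): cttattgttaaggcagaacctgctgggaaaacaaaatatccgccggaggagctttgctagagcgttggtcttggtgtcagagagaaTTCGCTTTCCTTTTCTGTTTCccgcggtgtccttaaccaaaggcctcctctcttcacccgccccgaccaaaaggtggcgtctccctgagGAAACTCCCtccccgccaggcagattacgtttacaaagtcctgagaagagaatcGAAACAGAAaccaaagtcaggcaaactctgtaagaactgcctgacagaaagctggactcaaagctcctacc
CXCL2 (chr4:74099146-74099445, minus strand): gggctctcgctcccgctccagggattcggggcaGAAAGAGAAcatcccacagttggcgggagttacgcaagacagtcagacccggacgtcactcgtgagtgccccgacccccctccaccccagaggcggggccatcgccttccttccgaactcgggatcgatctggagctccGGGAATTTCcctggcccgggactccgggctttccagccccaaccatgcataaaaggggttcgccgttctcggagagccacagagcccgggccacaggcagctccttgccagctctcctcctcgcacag
GBP1 holds a response element core beginning at position -126 relative to the start and another at 37. IFIH1 holds 4 cores, at -164, -158, -152 and -21, of which the first 3 share letters with their neighbours, and an NF-kB match at -75. CXCL2 holds a core at -217 and an NF-kB match, GGGAATTTC, at -78. In these data IFIH1 fell to 17.0, 17.0 and 15.8 FPKM with LPS+PD against 33.3, 33.7 and 34.6 with LPS and CXCL2 to 2.16, 1.96 and 2.47 with LPS+PD against 6.68, 5.92 and 7.28 with LPS.

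Across promoters, the response element core was found in 32 of 143 promoters of genes called at least 2-fold lower (22.4%), in 9.96% of 1346 of all genes called lower, in 5.07% of 2327 of genes called higher and in 6.66% of 5364 of genes not called, and in 8.29% of all 27305 promoters in the table. NF-kB matches were found in 5.59% of the promoters of genes at least 2-fold lower, in 1.07% of those called higher, in 0.988% of those not called and in 1.30% of all. AP-1 matches (TGANTCA) occurred in 18.2%, 3.57%, 3.84% and 7.76% in the same order, and the CRE (TGACGTCA) in 1.40%, 2.58%, 3.56% and 1.98%. The GC box (CCCGCCCC), taken as a comparison, occurred in 32.2% of promoters of genes at least 2-fold lower, 42.2% of those higher, 37.3% of those not called and 22.7% of all. Only 13 promoters belonged to genes called at least 2-fold higher. Of these, AP-1 matches occurred in 3 (23.1%), above the 18.2% of genes at least 2-fold lower, and the GC box in 4 (30.8%). The response element core, NF-kB and CRE motifs occurred in 0 of the 13. Within lists, the core was present in 9 of 12 promoters of OAS, IFIT and IFI genes, 3 of 3 of guanylate-binding proteins, 9 of 17 of restriction factors, 5 of 16 of chemokines, 2 of 4 of the ISG15 conjugation list and 3 of 25 of feedback inhibitors, and NF-kB matches in 4 of 16 of chemokines and 3 of 25 of feedback inhibitors. A match of letters is a description and not a shown binding site, and neighbouring genes share ancestry and so sequence.

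**Figure D3:**
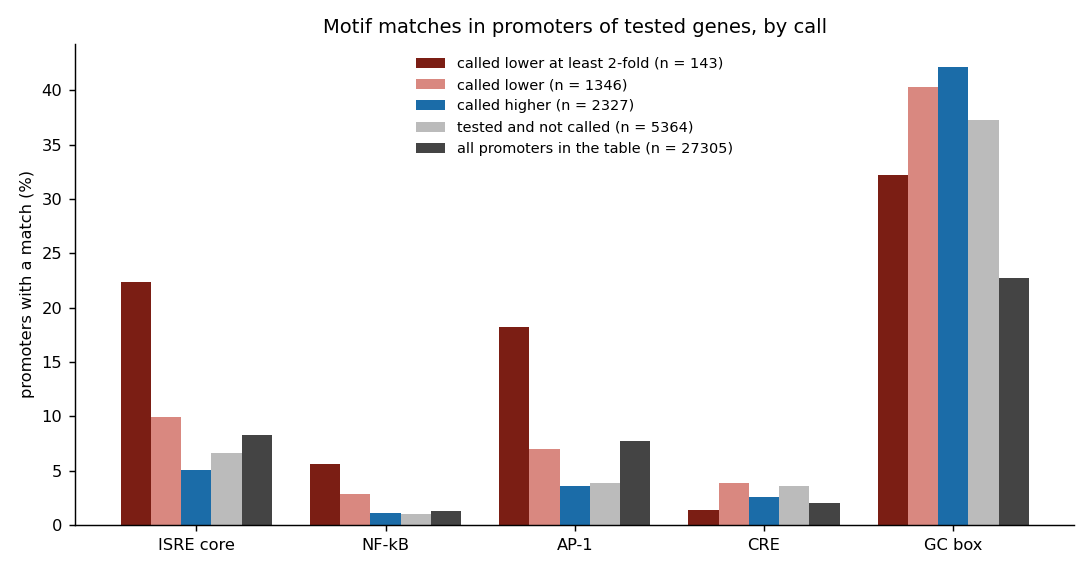
Percent of promoters (vertical axis) with a match to each of 5 motifs (horizontal axis) for genes called at least 2-fold lower in LPS+PD, called lower, called higher, tested and not called, and all promoters in the table; bars have no error, since each is a share of a fixed set. The core of the interferon-stimulated response element (ISRE) reaches 22.4% in the first set and 5.07% among genes called higher.

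Many costimulatory and adhesion molecules were lower with PD. Costimulatory and checkpoint molecules fell in 12 of 19 and rose in 2, with CD80, a ligand of CD28, at 0.926, 1.21 and 0.964 FPKM with LPS+PD and 7.55, 8.94 and 9.86 with LPS (a log2 difference of -2.26 with SE 0.10 and limma adjusted p = 1.00e-05) and SLAMF7 at 15.5, 15.6 and 16.001 with LPS+PD against 41.0, 45.6 and 46.8 with LPS. SIRPA, the receptor of the CD47 signal, had 40.5, 40.7 and 42.6 FPKM with LPS+PD and 66.6, 70.0 and 69.9 with LPS. Of integrins and adhesion molecules 14 of 22 fell and 2 rose, with a median of -0.18. The falls included ICAM1, at 38.5, 40.2 and 43.3 with LPS+PD and 79.9, 81.7 and 96.2 with LPS, and the hyaluronan receptor CD44, at 26.0, 24.4 and 27.7 with LPS+PD against 47.9, 53.8 and 56.9 with LPS. ITGAM, the CD11b integrin chain, was higher, with means of 19.2 ± 1.32 FPKM with LPS+PD and 11.8 ± 1.00 with LPS, whereas its relative ITGAX was lower at 20.03, 19.7 and 20.1 with LPS+PD against 25.1, 25.5 and 24.6 with LPS. Of 13 immunoproteasome and peptide loading genes 6 fell and 1 rose, with a median of -0.09. The rise was lost without LPS+PD replicate 7, LPS+PD replicate 8 or LPS replicate 6. TAP1 fell to 37.3, 39.6 and 41.6 FPKM with LPS+PD against 74.4, 76.8 and 79.9 with LPS, and B2M to 267, 267 and 262 with LPS+PD against 307, 307 and 303 with LPS. Of the constitutive proteasome subunits few were called, with 5 of 26 lower, near the 14.2% of all tested genes, and 0 higher. The largest of these falls was -0.21 on the log2 scale (PSMA4), and 2 subunits were called lower without LPS+PD replicate 9, LPS replicate 5 or LPS replicate 6.

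Of 25 tested chemokine, complement and metabolite receptors 15 fell and 6 rose. The share of rises was near the 23.6% of all tested genes, and 14.2% of all tested genes fell. ADGRE1, whose mouse counterpart is the macrophage marker F4/80, had 1.64, 1.83 and 1.41 FPKM with LPS+PD and 8.21, 7.69 and 8.87 with LPS (a log2 difference of -1.82 with SE 0.08 and limma adjusted p = 8.78e-06). PTAFR, the receptor of platelet-activating factor, had 28.4, 27.1 and 31.1 with LPS+PD and 60.9, 62.8 and 62.4 with LPS, and GPR132 had 13.1, 13.3 and 12.4 with LPS+PD against 34.5, 39.2 and 41.1 with LPS. CCR2, the receptor of CCL2, was higher with PD, at 29.9, 29.1 and 28.5 FPKM with LPS+PD against 15.4, 13.8 and 14.2 with LPS (a log2 difference of 0.96 with SE 0.05 and limma adjusted p = 1.17e-05), with 60.0 to 61.7 in control libraries. CXCR4 and CXCR2 rose too (log2 fold changes 0.80 and 0.97), and CCR7 fell by 2.01. Interleukin and growth factor receptors fell in 13 of 26 and rose in 7. CSF1R, the receptor of macrophage colony-stimulating factor, had 40.2, 41.2 and 42.4 FPKM with LPS+PD and 73.2, 80.7 and 81.8 with LPS, and the IL-18 receptor chain IL18R1 had 1.82, 1.53 and 2.13 with LPS+PD against 7.35, 7.33 and 6.87 with LPS. FLT3, IL27RA and CSF3R were the largest rises of this list, with log2 fold changes of 0.75, 0.70 and 0.65.

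Among Fc, LILR and Siglec receptors 11 of 19 fell and 3 rose. TREM2, a lipid-sensing receptor, rose to 46.3, 45.7 and 42.4 FPKM with LPS+PD against 20.1, 18.5 and 20.9 with LPS (a log2 difference of 1.14 with SE 0.05 and limma adjusted p = 1.17e-05), with control libraries at 50.6 to 55.9. SIGLEC1, an interferon-induced sialic acid receptor, fell to 27.2, 29.8 and 28.5 with LPS+PD against 45.9, 45.9 and 46.1 with LPS. FCGR1A and FCGR1B, high-affinity IgG receptor genes that share sequence and so may share reads, had log2 fold changes of -0.68 and -1.19.

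Granule and S100 proteins went opposite ways within their list, with 6 of 16 lower and 8 higher. The calgranulins S100A8, S100A9 and S100A12 fell, S100A9 to 932, 907 and 856 FPKM with LPS+PD against 1918, 1889.7 and 1974 with LPS (a log2 difference of -1.10 with SE 0.04 and limma adjusted p = 3.96e-06) and S100A12 to 39.7, 38.7 and 38.6 with LPS+PD against 83.0, 85.3 and 89.0 with LPS. Azurophil granule genes rose, AZU1 to 852, 845 and 823 FPKM with LPS+PD against 589, 559 and 599 with LPS, and ELANE, PRTN3 and CTSG with log2 fold changes of 0.55, 0.55 and 0.79. LYZ, which encodes lysozyme, averaged 301 ± 14.9 FPKM with LPS+PD and 158 ± 12.2 with LPS, with a control mean of 169. Of the coagulation, plasminogen and protease list 14 of 22 fell and 4 rose. SERPINB9, an inhibitor of granzyme B, had 1.17, 0.901 and 0.968 FPKM with LPS+PD and 7.46, 9.73 and 9.61 with LPS (a log2 difference of -2.30 with SE 0.10 and limma adjusted p = 1.08e-05), and SERPINA1, which encodes alpha-1-antitrypsin, had 2.31, 2.73 and 2.70 with LPS+PD against 8.59, 8.95 and 10.6 with LPS. The rises were TIMP3, TIMP2, the tissue factor gene F3 and SERPINB2. SERPINB2 averaged 3.96 ± 0.290 FPKM with LPS+PD and 0.465 ± 0.187 with LPS, and passed the filter through LPS+PD libraries alone. Its log2 fold change of 1.76 was the largest rise of all tested genes. C3, the central complement component, fell to 28.5, 30.9 and 30.6 FPKM with LPS+PD against 49.7, 51.4 and 49.7 with LPS, while CFD and CFP of the alternative pathway rose by 0.20 and 0.29 on the log2 scale.

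IDO1, which opens the tryptophan ring, had 2.01, 2.10 and 2.51 FPKM with LPS+PD and 20.8, 22.3 and 25.9 with LPS (log2 fold change -2.90). TDO2, which catalyses the same step, had 2.04, 2.43 and 2.08 FPKM with LPS+PD and 16.7, 20.9 and 23.02 with LPS (log2 fold change -2.72). WARS, the tryptophanyl-tRNA synthetase, fell to 19.2, 20.4 and 21.3 FPKM with LPS+PD against 30.9, 31.1 and 34.0 with LPS. SAT1, which acetylates polyamines, had 15.1, 14.3 and 14.2 FPKM with LPS+PD and 38.3, 41.9 and 38.2 with LPS (a log2 difference of -1.38 with SE 0.05 and limma adjusted p = 3.59e-06), and NAMPT, which feeds NAD synthesis, had 4.27, 4.61 and 4.08 with LPS+PD against 9.39, 10.3 and 10.1 with LPS. In fatty acid handling the ligases ACSL1 and ACSL4 fell, ACSL1 to 17.0, 17.6 and 18.2 FPKM with LPS+PD against 43.2, 44.4 and 49.6 with LPS, whereas CPT1A, the gate to mitochondrial fatty acid oxidation, rose to 17.1, 16.8 and 17.8 with LPS+PD against 11.3, 10.8 and 10.5 with LPS. Over all tested genes 23.6% rose and 14.2% fell. Glycolysis genes fell in 9 of 22 and rose in 3. The glucose transporter SLC2A3 had 1.02, 1.01 and 1.103 FPKM with LPS+PD and 2.80, 2.68 and 2.85 with LPS. Hexokinase HK3 was higher at 7.26, 7.95 and 6.96 with LPS+PD against 5.02, 4.60 and 4.52 with LPS. Tricarboxylic acid cycle genes rose in 11 of 24 and fell in 0, led by IDH2 at 106, 103 and 103 FPKM with LPS+PD and 84.3, 83.5 and 84.1 with LPS. Median-of-ratios scaling left 6 of these rises, and under it 2007 of all 12812 genes were called higher. Cholesterol synthesis genes fell in 13 of 23 and rose in 2, with the cholesterol carrier STARD4 at 17.0, 17.5 and 16.9 with LPS+PD and 28.5, 32.3 and 31.5 with LPS. Serine, one-carbon and nucleotide synthesis genes rose in 9 of 26 and fell in 2, or 1 without LPS+PD replicate 7, LPS replicate 4 or LPS replicate 6, with PHGDH, the first enzyme of serine synthesis, at 7.33, 7.83 and 8.01 FPKM with LPS+PD and 4.86, 3.62 and 4.18 with LPS (log2 fold change 0.75). The libraries of the groups did not overlap for any of the metabolic genes given with values. These genes were taken by small p or after their values were seen, so this follows largely from the choice. Of all tested genes 51.6% showed no overlap.

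Of 10 iron and haem genes 5 fell and 2 rose, and of 20 NADPH oxidase and antioxidant genes 7 fell and 4 rose. FTH1, the ferritin heavy chain with many pseudogene copies, had 1057, 1069 and 1135 FPKM with LPS+PD and 1683, 1762 and 1822 with LPS, and HMOX1, which degrades haem, had 6.35, 6.32 and 6.58 with LPS+PD against 13.7, 14.96 and 17.6 with LPS. The NADPH oxidase subunit NCF1, which has near-identical pseudogenes, fell by 1.06 on the log2 scale. Catalase (CAT) rose to 64.9, 60.7 and 60.8 FPKM with LPS+PD against 35.2, 32.8 and 32.9 with LPS (a log2 difference of 0.87 with SE 0.04 and limma adjusted p = 1.20e-05), and GPX4, which removes lipid peroxides, to 151, 153 and 152 with LPS+PD against 118, 117 and 123 with LPS. Lysosomal proteases and hydrolases rose in 8 of 29, near the 23.6% of all tested genes, and fell in 7, or 4 without LPS replicate 6; LAMP1 and CTSZ were higher and CTSL lower (log2 fold changes 0.40, 0.40 and -0.61). HSPB1, a small heat shock protein, rose to 211, 213 and 217 FPKM with LPS+PD against 149, 144 and 148 with LPS. Of 24 genes of ATF4 and the unfolded protein response 10 fell and 5 rose, with a median of -0.09, or 15 and 1 under median-of-ratios scaling, and 3 rose without LPS+PD replicate 9. DDIT4 and ATF5, targets of the stress factor ATF4, fell by 1.15 and 0.86 on the log2 scale.

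Of the 55 gene lists, replication licensing and DNA synthesis had the largest share of rises. Its genes rose in 24 of 30 and fell in 0, with a median of 0.24, and 22 rose under median-of-ratios scaling. MCM4, a subunit of the replicative helicase, had 92.6, 94.4 and 91.5 FPKM with LPS+PD and 72.9, 71.7 and 67.0 with LPS (a log2 difference of 0.39 with SE 0.04 and limma adjusted p = 2.33e-04), and control libraries lay at 97.1 to 98.7. MCM2 had 72.8, 75.8 and 75.9 with LPS+PD and 60.4, 59.0 and 58.9 with LPS, and the licensing factor CDT1 had 36.3, 35.9 and 38.0 with LPS+PD against 29.4, 29.3 and 28.2 with LPS. Mitotic genes rose in 14 of 29 with smaller steps, such as TOP2A at 76.1, 74.9 and 73.8 FPKM with LPS+PD and 67.3, 66.1 and 62.9 with LPS (log2 fold change 0.19), and 9 rose under median-of-ratios scaling. Of 22 cyclins and cell cycle inhibitors 8 fell and 9 rose, beside 14.2% and 23.6% of all tested genes. The cell cycle brakes CDKN1A (p21) and BTG2 fell, CDKN1A to 34.5, 37.6 and 38.7 FPKM with LPS+PD against 84.1, 97.9 and 104 with LPS and BTG2 to 134, 149 and 147 with LPS+PD against 366, 404 and 425 with LPS, and so did CCND1, which encodes cyclin D1, by 1.19 on the log2 scale. The rises included CDKN2C, another inhibitor, and CDK4, a cyclin-dependent kinase, with log2 fold changes of 0.43 and 0.27. Of the thymidine enzymes, TYMS rose to 51.6, 51.9 and 51.8 FPKM with LPS+PD and 38.0, 36.7 and 39.8 with LPS and TK1 rose to 98.9, 98.6 and 102 with LPS+PD against 79.2, 77.0 and 75.5 with LPS. Chromatin enzymes rose in 14 of 28 and fell in 3, or 9 and 6 under median-of-ratios scaling, and 9 rose without LPS replicate 5. The maintenance methyltransferase DNMT1 had 51.4, 52.9 and 51.9 FPKM with LPS+PD and 44.5, 43.8 and 43.8 with LPS, and KDM6B, an LPS-inducible histone demethylase, was lower at 2.28, 2.21 and 2.25 with LPS+PD against 5.53, 5.79 and 6.24 with LPS.

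Of 29 genes of the BCL2 family and caspases 14 were lower and 6 higher. Over all tested genes 14.2% were lower and 23.6% higher, so the rises were near the general share. BIK, which promotes cell death, rose to 18.8, 18.9 and 21.0 FPKM with LPS+PD against 7.19, 6.11 and 7.12 with LPS (a log2 difference of 1.40 with SE 0.07 and limma adjusted p = 1.34e-05), with control libraries at 51.1 to 52.3. The survival gene BCL2A1 averaged 6.18 ± 1.32 FPKM with LPS+PD and 23.2 ± 4.13 with LPS, and MCL1 fell to 117, 120.3 and 123 with LPS+PD against 158, 167 and 168 with LPS. Of the inflammatory caspases, CASP1 fell to 25.3, 25.1 and 24.9 FPKM with LPS+PD against 41.6, 43.3 and 41.8 with LPS and CASP5 fell to 0.633, 0.592 and 0.458 with LPS+PD against 4.94, 3.85 and 5.27 with LPS.

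**Figure D4:**
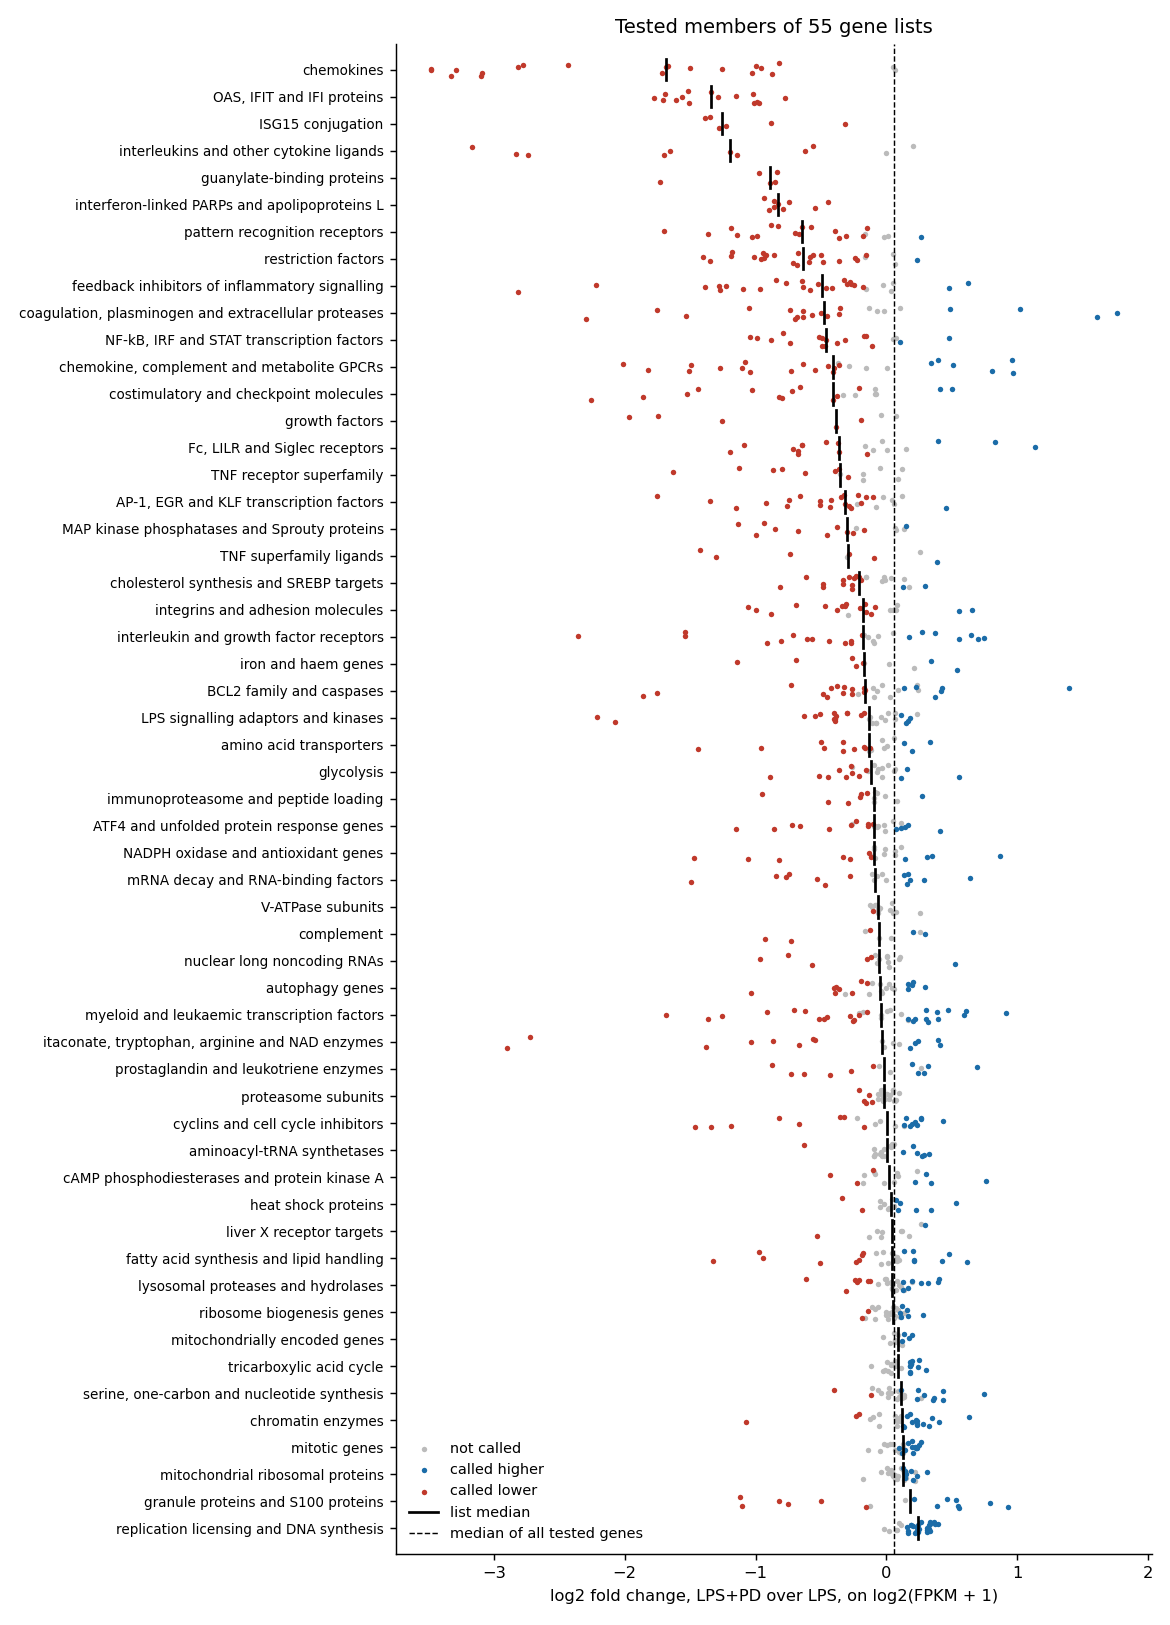
Log2 fold change of LPS+PD over LPS (horizontal axis) for the tested members of 55 gene lists (rows, ordered by median), with points coloured by call, a black bar at each list's median and a dashed line at the median of all tested genes, 0.06. Chemokines are at the top with a median of -1.68 and replication genes at the bottom with 0.24.

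The largest single rises reached lower folds than the falls. TIMP3, an inhibitor of metalloproteinases (chromosome 22, 32801701 to 32863043, plus strand), had 10.2, 10.5 and 10.8 FPKM in LPS+PD libraries and 3.28, 2.53 and 2.52 in LPS libraries (a log2 difference of 1.61 with SE 0.08 and limma adjusted p = 1.51e-05), with 25.1 to 26.7 in control libraries. CA2, a carbonic anhydrase, had 344, 337 and 324 FPKM with LPS+PD and 154, 139 and 134 with LPS, and PTPRF, a receptor phosphatase, had 18.9, 19.8 and 21.0 with LPS+PD against 8.34, 7.85 and 7.95 with LPS. MS4A6A, a membrane protein of myeloid cells, had 28.2, 26.7 and 25.4 FPKM with LPS+PD and 12.98, 11.8 and 11.7 with LPS. Its relative MS4A3 had 6.20, 5.99 and 5.95 FPKM with LPS+PD and 3.00, 2.05 and 2.09 with LPS. For TIMP3, BIK, CA2, PTPRF, MS4A6A and MS4A3 the LPS+PD libraries lay between the LPS and the control libraries. Further genes among the 15 rises taken by size at a mean of at least 5 FPKM were LINC02169, CCDC88B, CASC10, IRX3, RPS6KA4 and MYADM, with log2 fold changes from 1.03 for MYADM to 1.32 for LINC02169.

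Some higher genes lay above both other groups, as a description of levels. The LPS+PD libraries exceeded every LPS and every control library in 559 of 2879 genes called higher that carry a gene name. The call itself largely places these genes above LPS, and no such share was taken over all tested genes. The count also rests on FPKM without scaling between libraries, and median-of-ratios scaling called 2007 genes higher in place of 3026. CD52, a surface glycoprotein of leukocytes, had 12.98, 13.5 and 16.4 FPKM with LPS+PD, 5.75, 4.33 and 5.61 with LPS and 3.76 to 5.74 in control libraries. SLC45A3, a membrane transporter gene, had 6.26, 7.02 and 7.59 with LPS+PD, 3.59, 3.59 and 3.05 with LPS and 2.89 to 2.99 in control libraries. IGKC, an immunoglobulin light chain gene, had 5.46, 3.83 and 6.65 FPKM, or 51, 34 and 62 fragments, with LPS+PD and 1.73, 0.469 and 0.943 FPKM, or 16, 4 and 8 fragments, with LPS, and 0 in control. Of 10 B and plasma cell markers 8 had values, IGKC among them, and these summed to 8.84 to 10.9 FPKM with LPS+PD and 6.68 to 7.41 with LPS. Of the 8, 5 were below 1 in all 6 libraries, and PAX5 was lower with PD (log2 fold change -0.69). Their part in the result was not tested. RN7SL2, a signal recognition particle RNA with many copies in the genome, had 1689, 1714 and 1724 FPKM with LPS+PD and 963, 991 and 867 with LPS, and the U6 copies RNU6-1305P and RNU6-312P rested on at most 12 fragments per library. Levels of such multicopy RNAs are uncertain in libraries enriched for poly(A).

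**Figure D5:**
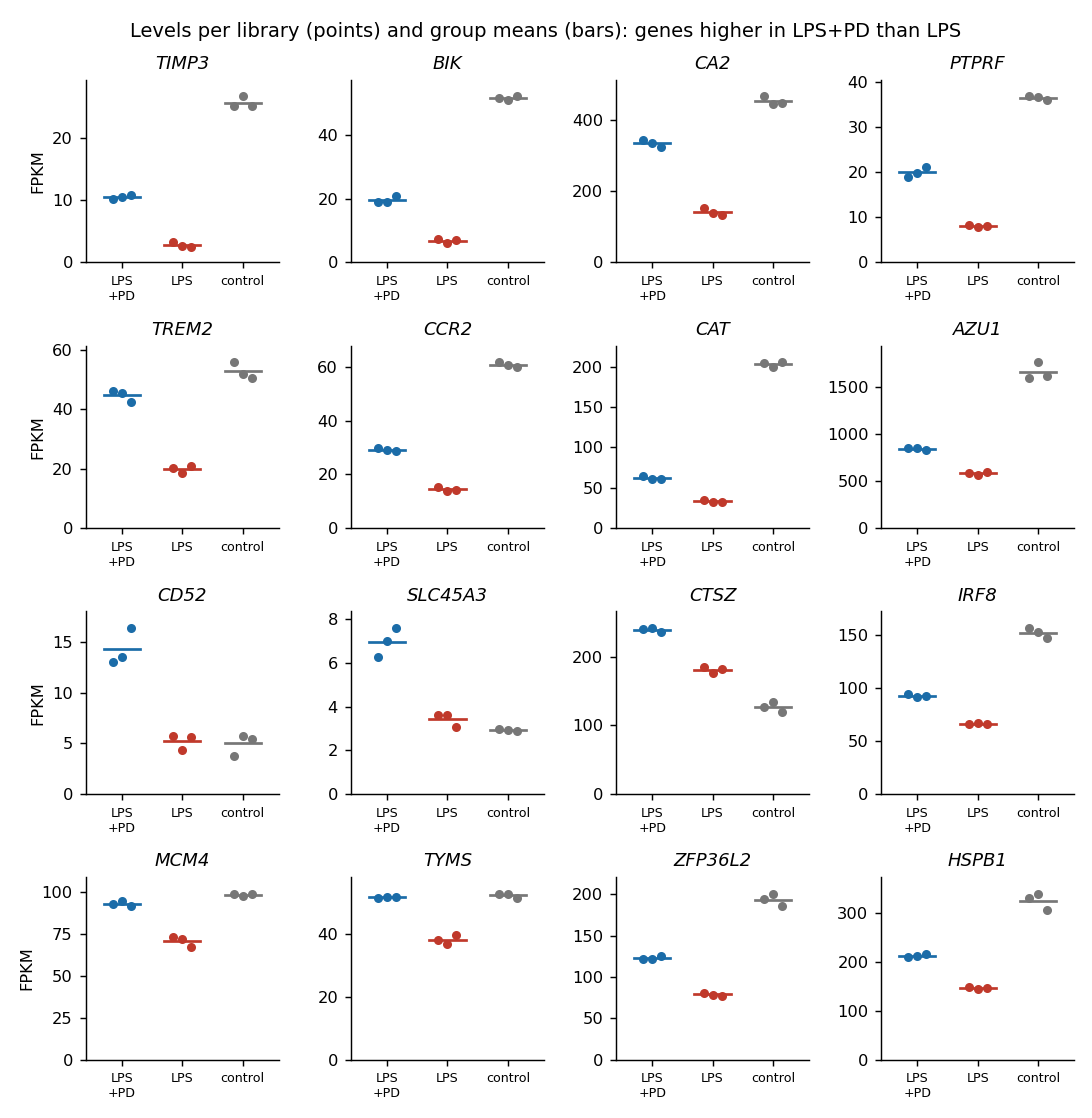
FPKM in each library (points) with group means (horizontal bars) for 16 genes called higher in LPS+PD than in LPS, with LPS+PD left of LPS and control last; each panel has its own vertical axis from 0. In the panels of CD52, SLC45A3 and CTSZ the LPS+PD points lie above those of both other groups, and in those of TIMP3 and BIK between them.

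Genes with a high LPS level were also ordered by how little they differed with PD. All 122 genes with a mean of at least 20 FPKM with LPS and at least 8 times the control mean were called lower. Among these 122, the 5 smallest differences were those of DTX4, RELB, CHST2, ITGB2-AS1 and SLC2A6. Both the set and the order used the LPS libraries themselves, so the values are a description. DTX4, a ubiquitin ligase, had 21.4, 24.0 and 22.6 FPKM with LPS+PD and 24.4, 25.4 and 26.2 with LPS, and RELB, the NF-kB subunit of the non-canonical route, had 37.8, 39.1 and 40.7 with LPS+PD against 44.8, 41.9 and 45.0 with LPS. Each of these 2 calls was lost in 4 of the 6 fits that left out a library. Log2 fold changes of the 5 ran from -0.27 for SLC2A6 to -0.15 for DTX4. Of the genes commonly used for scaling, GAPDH had 296, 296 and 297 FPKM with LPS+PD and 305, 311 and 318 with LPS and was not called (log2 fold change -0.07), but was called lower under median-of-ratios scaling, at -0.13. ACTB had 2293, 2276 and 2313 FPKM with LPS+PD and 2224, 2138 and 2206 with LPS and was not called (log2 fold change 0.07). The 13 mitochondrially encoded genes, as a sign of RNA quality, summed to 30806 to 31920 FPKM with LPS+PD and 28838 to 29783 with LPS, and 4 were called higher, or 1 under median-of-ratios scaling and 2 without LPS+PD replicate 8 or LPS replicate 6; their part in the other results was not tested.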

How the data were processed

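The series holds 9 poly(A)-enriched RNA-seq libraries of THP-1 cells in 3 groups of 3, taken from the treatment labels. The deposited table gives FPKM per Ensembl gene on GRCh38, made by the authors; bcl2fastq, FastQC, HISAT2 and StringTie are named in the submitters' processing notes, without versions or order. FPKM fixes neither depth nor counts, but 97.6% to 97.7% of values were whole multiples, within 0.05, of the value of 1 fragment, which gave the depths quoted. Strand handling is not stated.

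Genes at 1 FPKM or more in 3 or more of the 6 LPS+PD and LPS libraries were fitted on log2(FPKM + 1) with limma 3.58.1 in R 4.3.3 (lmFit, eBayes with an intensity trend), with Benjamini-Hochberg adjustment over all 12812 genes, and the procedure was tested on simulated data. Tables and figures were made with Python 3.11.15, pandas 2.3.3, numpy 2.4.6 and matplotlib 3.10.9. Alternatives were other pseudocounts, filters, scalings and fits, and leaving out each library; a count model (voom on recovered fragments) and a fit to protein-coding genes were added after seeing the data.

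Genes named are the 15 largest falls and rises with no overlap and a group mean of at least 5 FPKM, up to 4 called members with the smallest p per list, 16 fixed genes, 5 LPS-high genes that changed least, 6 genes above both other groups, and chromosomal runs. Other genes named, mostly members that were not called or moved against their list, were chosen after their values were seen. The members and the 55 lists were chosen with earlier results of these data known. Control libraries entered no main test. Results for some genes are not reported here.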

Additional observations from a re-analysis of the deposited data

How the results depend on the processing

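Of 4475 values of named genes under alternative settings, 4387 kept their call, and where called also their direction. The call was lost in 84 and gained in 4 (GAPDH under median-of-ratios scaling, array weights and voom, and ACTB under voom). Of values called in either fit, 0 reversed. Genes not called could change sign near 0, such as JAK1, from 0.006 to -0.054 under median-of-ratios scaling. The total of 4842 called genes stayed within 1.5 times, from 3789 with a filter at 5 FPKM to 5506 with voom, except at adjusted p below 0.01, where 2910 were called, 1667 of them higher. Median-of-ratios scaling called 2007 higher and 2348 lower, so that 46.1% of calls were higher against 62.5%. Counts of at least 2-fold changes followed the pseudocount, which sets how far low genes are shrunk. With 0.1 they were 111 higher and 305 lower, with 5 they were 4 and 83, and with voom 134 and 321, against 34 and 196. The filter at 5 FPKM left 18 higher and protein-coding genes alone 17. Leaving out each library gave 3829 to 4360 called genes, 37 to 48 at least 2-fold higher and 184 to 217 at least 2-fold lower. The limits are 3 libraries a group, no count of cells, and low genes whose fold is understated. No paired analysis was made, because the labels do not say whether LPS+PD and LPS libraries were matched. The numbers 7 to 9 and 4 to 6 are running sample numbers.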
